A study of Mus musculus with 2 samples.

Results

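The genes described here are the 10 genes that mark the resident macrophages of the liver, the Kupffer cells (KCs): Clec4f, Timd4, Vsig4, Cd5l, Marco, Clec1b, Cd163, Folr2, Spic and Adgre1. They were taken by symbol from the gene list of the count tables, which holds 32285 genes, of which 18712 had at least 1 UMI over tissue, and each of the 10 names matched 1 row. The data are 10x Visium spatial transcriptomics (ST), in which RNA from a tissue section is caught by an array of tagged spots beneath it, and copies of the same molecule are merged by a unique molecular identifier (UMI). A spot is a small region that can hold several cells, so every level below belongs to spots and not to single cells.

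The study has an NCD group and an HFD group, both of male C57BL/6J mice that were 5 weeks old on arrival. The NCD mouse belonged to the control group, which was not given the fatty diet, and the HFD mouse was fed a 60% high-fat diet (D12492) for 14 weeks, which induces fatty liver. Mice of both groups were then given distilled water by mouth daily for 8 weeks, so that the NCD and HFD sections share this vehicle. Whether the high-fat diet went on during these weeks is not given in the sources used here. The livers were perfused, frozen in OCT and cut at 10 µm. Each group is 1 section of 1 mouse, so diet, mouse, section and library cannot be told apart. No test of diet was possible, and every interval below is a 95% interval of counting error only. The labels name liver as the tissue but also name an immune cell type and a hematopoietic stem cell line. Alb, the hepatocyte albumin gene, stood at 56011 UMIs per 1000000 (CPM) in the NCD section against 57872 CPM in the HFD section, which is a liver profile.

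The sections differed in depth, and so the levels of each gene were also compared among spots of like depth. In NCD, 3692 spots lay over tissue and gave 29037988 UMIs, the median spot holding 4187.5, and 840 of them (22.8%) held fewer than 1000 UMIs. In HFD, 3594 spots gave 72118803 UMIs with a median of 18549, and 4 of them held fewer than 1000. The sections shared 3173 spot barcodes, because their arrays carry the same printed set. Spots outside the tissue also held UMIs, 6870975 on the NCD array and 2177155 on the HFD array. Such a spot held a median of 3383 UMIs on the NCD array, close to that over tissue. It held 1175.5 on the HFD array, far below that over tissue. Levels outside the tissue are given below for the sum and for Timd4, Marco, Cd163, Vsig4, Clec4f and Cd5l.

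KCs line the liver sinusoids, where they take up bacteria, dying cells, aged red cells and complement-coated particles from the portal blood. They arise largely before birth and renew themselves in the healthy liver. When resident cells are lost, as in fatty liver disease, monocyte-derived macrophages can enter the niche and take on part of the KC programme, and lipid-laden lesions also gather macrophages that express Trem2 and Gpnmb, known as lipid-associated macrophages or, in this study, NASH-associated macrophages (NAM).

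With all spots over tissue pooled, the summed KC genes stood at the same level in both sections, but the genes that made up the sum did not. Timd4, Marco, Cd163 and Vsig4 were lower in the HFD section, by 9.03-fold, 9.17-fold, 13.5-fold and 2.16-fold. Adgre1 was 2.18-fold higher, and Clec4f, Cd5l, Clec1b, Folr2 and Spic lay within 1.5-fold. The sum was 246 CPM from 7142 UMIs in the NCD section against 243 CPM from 17527 UMIs in the HFD section, for a log2 ratio of HFD to NCD of -0.02 (-0.06 to 0.02). Among the 12919 genes that reached 50 UMIs when the sections were added, 5.84% were at least 1.5-fold lower in HFD and 26.7% at least 1.5-fold higher, against 4 and 1 of the 10 KC genes, all of which had that minimum. The median log2 ratio was -0.08 over the KC genes and 0.25 over all genes tested. In spots, fewer cells of a type and less RNA per cell cannot be told apart.

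The genes that were lower are receptors for uptake. Timd4, a receptor for phosphatidylserine on dying cells and a mark of KCs of embryonic origin, had 229 UMIs and 7.89 CPM (6.90 to 8.98) in the NCD section against 63 UMIs and 0.874 CPM (0.671 to 1.12) in the HFD section, for a log2 ratio of -3.17 (-3.60 to -2.77). Marco, a scavenger receptor for bacteria and particles, had 410 UMIs and 14.1 CPM (12.8 to 15.6) against 111 UMIs and 1.54 CPM (1.27 to 1.85), for a log2 ratio of -3.20 (-3.51 to -2.89). Cd163, the receptor for haemoglobin bound to haptoglobin, had 174 UMIs and 5.99 CPM (5.13 to 6.95) against 32 UMIs and 0.444 CPM (0.303 to 0.626), for a log2 ratio of -3.76 (-4.35 to -3.21). For each of these 3 genes the HFD section gave fewer UMIs than the NCD section in spite of its larger library. Outside the tissue of the HFD array Timd4 stood at 0.919 CPM from 2 UMIs, Cd163 at 1.38 CPM from 3 UMIs and Marco at 0.459 CPM from 1 UMI, which are too few UMIs to set against the levels over tissue. Outside the NCD tissue Timd4, Cd163 and Marco stood at 7.13, 5.68 and 15.1 CPM, close to their levels over it, and the part of RNA spread between spots was not tested.

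Vsig4, the complement receptor of KCs, was lower by a smaller factor and was still found in 827 HFD spots as deposited. It had 1060 UMIs and 36.5 CPM (34.3 to 38.8) in the NCD section against 1216 UMIs and 16.9 CPM (15.9 to 17.8) in the HFD section, for a log2 ratio of -1.11 (-1.23 to -0.99). The interval lies clear of those of Timd4, Marco and Cd163. Outside the tissue Vsig4 stood at 41.0 CPM on the NCD array and 12.9 CPM on the HFD array.

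**Figure D1:**
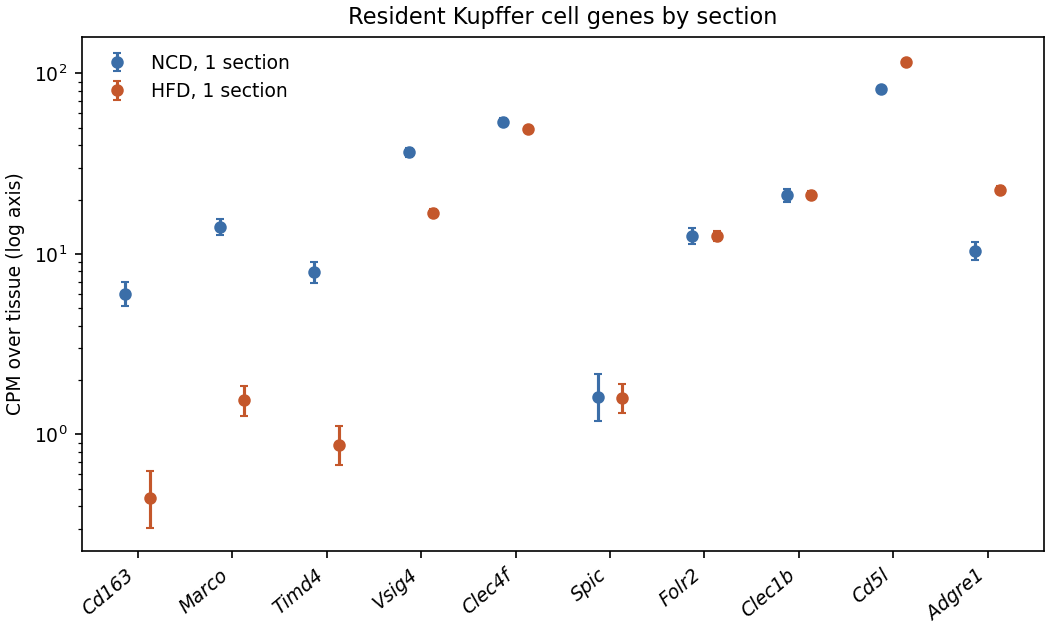
Level of each KC gene in the NCD section (blue) and the HFD section (orange), in CPM over tissue on a log axis, with bars for the 95% Poisson interval of the UMI count; 1 section per diet. Cd163, Marco and Timd4 lie between 5.99 and 14.1 CPM in NCD and between 0.444 and 1.54 CPM in HFD, the gap of Vsig4 is smaller, 5 genes lie close together, and Adgre1 is higher in the HFD section.

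The genes within 1.5-fold include the lectins and the secreted protein of the list. Clec4f, a C-type lectin found in mouse on KCs, had 1569 UMIs and 54.0 CPM (51.4 to 56.8) in the NCD section against 3547 UMIs and 49.2 CPM (47.6 to 50.8) in the HFD section, for a log2 ratio of -0.14 (-0.22 to -0.05). Clec1b, the podoplanin receptor, which platelets carry as well, had 612 and 1533 UMIs, 21.1 and 21.3 CPM, for a log2 ratio of 0.01 (-0.12 to 0.15). Folr2, the folate receptor of tissue macrophages, had 364 and 905 UMIs and stood at 12.5 CPM in both sections, for a log2 ratio of 0.00 (-0.18 to 0.18). For these summed counts the intervals leave out any change as large as that of Vsig4. The Folr2 log2 ratio moved between alternatives, from -0.82 with spots drawn down to 300 UMIs to 0.38 at 1000 UMIs, and that of Clec1b was -0.50 as a mean over spots.

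Spic, a transcription factor of macrophages that recycle haem iron, had the fewest NCD UMIs of the 10, with 47 UMIs and 1.62 CPM (1.19 to 2.15) in the NCD section against 114 UMIs and 1.58 CPM (1.30 to 1.90) in the HFD section. Its log2 ratio of -0.03 (-0.54 to 0.49) is too wide to tell a modest change in either direction. Spic was found in 43 NCD spots, and leaving out the 1% of spots with most Spic UMIs, which takes away most of these, turned the log2 ratio to 2.34.

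Cd5l, a secreted protein that binds IgM and is made by tissue macrophages, had 2374 UMIs and 81.8 CPM (78.5 to 85.1) against 8369 UMIs and 116 CPM (114 to 119), for a log2 ratio of 0.51 (0.44 to 0.57), just under the 1.5-fold limit. Adgre1, which encodes an adhesion receptor used as a general macrophage mark in mouse, had 303 UMIs and 10.4 CPM (9.29 to 11.7) against 1637 UMIs and 22.7 CPM (21.6 to 23.8), for a log2 ratio of 1.12 (0.94 to 1.30). As a mean over spots that weights the many shallow NCD spots equally, the Adgre1 log2 ratio was 0.21 and no longer past 1.5-fold, and with spots drawn down to 300 UMIs it was -0.0797.

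The make-up of the sum differed between the sections. Cd5l gave 33.2% of the summed UMIs in the NCD section against 47.7% in the HFD section. Clec4f gave 22.0% and 20.2%, so its share was kept. Vsig4 gave 14.8% and 6.94%, Marco 5.74% and 0.633%, Timd4 3.21% and 0.359%, and Cd163 2.44% and 0.183%. Without Cd5l in the sum the log2 ratio of HFD to NCD was -0.37, and so the equal sums rested on Cd5l.

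The windows before the start sites of the 4 lower genes, and of Cd5l as a gene that was kept, are shown because they are the regulatory sequence next to the transcripts that were lower together. Each is the 250 bases upstream of the RefSeq start on GRCm38.p6, written 5′ to 3′ on the strand of the gene, and capitals mark GAGGAA or GGAAGT, letters of the core bound by PU.1 and related ETS factors of macrophages, or the same motif on the other strand. The windows lie at chr11:46810549-46810798 (plus strand) for Timd4, chr1:120505025-120505274 (minus strand) for Marco, chr6:124304401-124304650 (plus strand) for Cd163, chrX:96293439-96293688 (minus strand) for Vsig4 and chr3:87357631-87357880 (plus strand) for Cd5l.
Timd4: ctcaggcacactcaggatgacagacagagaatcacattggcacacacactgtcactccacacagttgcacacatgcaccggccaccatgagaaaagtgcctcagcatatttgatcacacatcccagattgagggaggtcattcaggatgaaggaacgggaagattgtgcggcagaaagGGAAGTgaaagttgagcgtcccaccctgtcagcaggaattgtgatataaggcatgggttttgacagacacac
Marco: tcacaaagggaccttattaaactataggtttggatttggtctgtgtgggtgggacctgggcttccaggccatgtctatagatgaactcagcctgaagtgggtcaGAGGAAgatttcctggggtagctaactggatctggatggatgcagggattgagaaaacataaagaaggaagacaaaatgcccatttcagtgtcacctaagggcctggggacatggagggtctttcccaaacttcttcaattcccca
Cd163: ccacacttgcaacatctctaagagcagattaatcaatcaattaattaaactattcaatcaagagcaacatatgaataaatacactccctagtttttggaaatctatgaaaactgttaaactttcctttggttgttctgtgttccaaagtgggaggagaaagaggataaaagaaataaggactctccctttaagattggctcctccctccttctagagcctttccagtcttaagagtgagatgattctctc
Vsig4: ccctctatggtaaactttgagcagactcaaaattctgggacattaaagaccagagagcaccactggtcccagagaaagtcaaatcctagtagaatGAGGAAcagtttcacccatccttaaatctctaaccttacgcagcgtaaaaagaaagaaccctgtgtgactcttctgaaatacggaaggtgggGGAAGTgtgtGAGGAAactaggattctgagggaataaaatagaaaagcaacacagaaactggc
Cd5l: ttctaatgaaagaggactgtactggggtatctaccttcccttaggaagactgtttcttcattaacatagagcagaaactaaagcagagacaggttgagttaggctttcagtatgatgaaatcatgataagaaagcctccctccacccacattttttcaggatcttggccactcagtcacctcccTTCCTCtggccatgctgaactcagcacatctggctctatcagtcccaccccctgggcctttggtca
Timd4 holds 1 GGAAGT, Marco and Cd5l each hold 1 GAGGAA, Vsig4 holds 2 GAGGAA and 1 GGAAGT, and the Cd163 window holds neither. RefSeq windows were found for 9 of the 10 genes. Counted by gene, 7 of these 9 have a window with either motif on either strand. As Folr2 has more than 1 window, this count cannot be set against the share by window below. The RefSeq start lies 11863 bases from the GENCODE start for 1 Folr2 window and 1992 bases for that of Spic. Counted by window, 3 of their 10 windows hold GAGGAA and 5 hold GGAAGT. Of all 32851 RefSeq promoters, also counted by window, 23.3% hold GAGGAA, 19.7% hold GGAAGT and 36.7% hold either. The 2 motifs share the letters GGAA and can overlap. The motifs and the windows shown were chosen after the levels and sequences had been seen, a match is a description of letters only, and binding was not measured.

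Other lists of macrophage genes were measured beside the KC genes. Of 11 further KC genes, 4 were at least 1.5-fold lower, 3 at least 1.5-fold higher and 4 within 1.5-fold, with a median log2 ratio of -0.09 against 0.25 over all genes tested. Of all genes tested 5.84% were lower and 26.7% higher, so the count of higher genes is near the background. Cxcl13, a chemokine that attracts B cells, had 89 UMIs in the NCD section against 3 in the HFD section. C6, a component of complement, had a log2 ratio of -1.26, Fcna, a ficolin that binds microbial sugars, -1.14, and Slc40a1, the iron exporter ferroportin, -0.64. Cd207, the lectin langerin, was higher at 2.14, Il18bp, the soluble binder of IL-18, at 0.79 and Hmox1, the haem-degrading enzyme, at 0.70. Id3 (-0.09), Nr1h3 (0.18), Pltp (-0.23) and Zeb2 (0.14) were within 1.5-fold. A spot can hold several cells, and the part of cells other than KCs in the counts of these 11 genes was not tested.

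Most genes that macrophages of all origins share were higher in the HFD section, where 26.7% of all genes tested were at least 1.5-fold higher and the median log2 ratio of all was 0.25. Of 10 pan-macrophage genes, 7 were at least 1.5-fold higher and none lower, with a median log2 ratio of 0.86. They were Cd68 (1.46), Lyz2 (1.43), Fcgr1 (1.28), Mpeg1 (1.21), Csf1r (0.90), C1qa (0.81) and C1qb (0.77), while C1qc (0.55), Aif1 (0.40) and Mrc1 (0.16) were within 1.5-fold. All 4 core genes of lipid-associated macrophages were higher, Gpnmb by 22.6-fold, Mmp12 by 15.5-fold, Trem2 by 7.39-fold and Itgax by 6.10-fold. Of these, Gpnmb, Mmp12 and Itgax had 26, 41 and 28 UMIs in NCD and reached 50 only with those of HFD. Among the monocyte genes, Plac8 (384 NCD and 2080 HFD UMIs) stood at 1.12 on the log2 scale and Ly6c2 (76 and 254) at 0.43. Ccr2 (20 and 264 UMIs), Cx3cr1 (10 and 118) and Itgam (10 and 74) also reached 50 only with those of HFD. Their ratios of 2.41, 2.25 and 1.58 are not counted as a result for that reason. F13a1 had 4 and 44 UMIs. Of 7 sinusoidal endothelial genes, whose cells share the niche, 4 were at least 1.5-fold higher, Lyve1 at 1.78, Oit3 at 0.98, Clec4g at 0.76 and F8 at 0.70, while Stab2 stood at 0.31, Bmp2 at 0.00 and Kdr at -0.16. Of the platelet genes, which matter for Clec1b, Pf4 stood at 1.34 and Itga2b at -0.19, while Ppbp had 17 and 20 UMIs and Gp9 had 7 and 5. The 4 haemoglobin genes were lower in HFD, Hba-a1 at -2.56, Hba-a2 at -2.55, Hbb-bs at -2.36 and Hbb-bt at -1.86. The part of these cells in the KC gene levels was not tested.

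**Figure D2:**
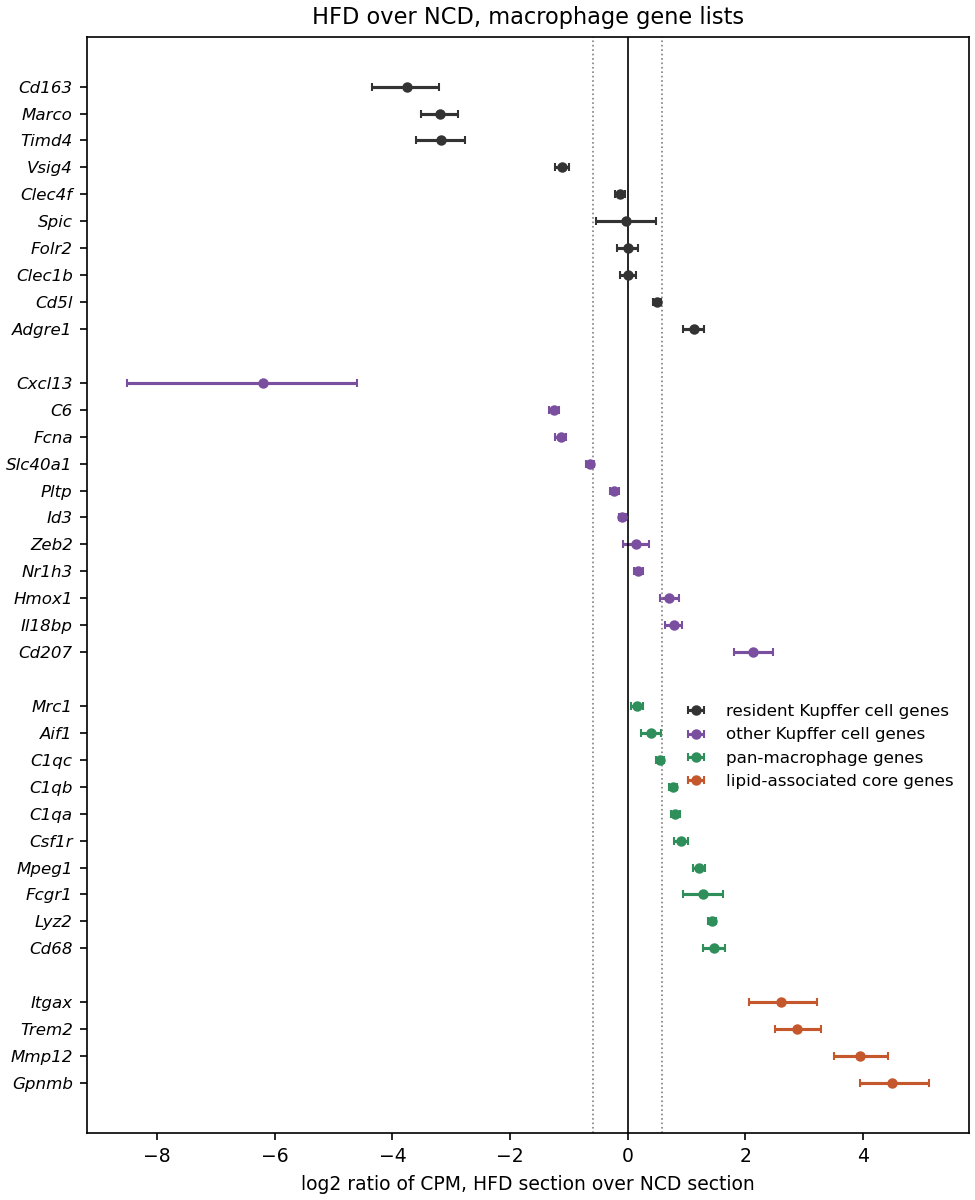
Log2 ratio of CPM, HFD over NCD, for the KC genes (black), 11 other KC genes (purple), 10 pan-macrophage genes (green) and 4 core genes of lipid-associated macrophages (orange), with 95% intervals of counting error; dotted lines mark 1.5-fold. The KC genes run from -3.76 for Cd163 to 1.12 for Adgre1, while the pan-macrophage genes lie at or above 0.16 and the core genes at or above 2.61.

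Set against the complement genes C1qa, C1qb and C1qc, which tissue macrophages share, most KC genes were lower in the HFD section. The summed KC genes had 108 UMIs per 100 C1q UMIs in the NCD section against 65.6 in the HFD section, for a log2 ratio of -0.72 (-0.76 to -0.68). Clec4f went from 23.8 to 13.3 per 100 C1q UMIs, for a log2 ratio of -0.84 (-0.93 to -0.76). Clec1b (-0.69), Folr2 (-0.70) and Spic (-0.74) had ratios of similar size, so the genes that held their level in CPM were lower on this scale. Cd5l came closest to keeping pace, from 36.0 to 31.3 per 100, for a log2 ratio of -0.20 (-0.27 to -0.13). Adgre1 was higher, from 4.59 to 6.13 per 100, at 0.42 (0.24 to 0.60). The 4 genes that were lower in CPM lay further down, Vsig4 at -1.82, Timd4 at -3.88, Marco at -3.90 and Cd163 at -4.46.

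The lower levels were found at like depth too. In spots of 10000 to 20000 UMIs, 625 of them NCD and 1414 HFD, Timd4 had a log2 ratio of -3.23, Marco of -3.01, Cd163 of -3.78 and Vsig4 of -1.08. In spots of 20000 UMIs and more, 413 and 1611 of them, the ratios were -2.96, -3.00, -3.53 and -1.07. Clec4f stood at 0.04 and -0.05 in these depth classes, Clec1b at 0.23 and 0.02, and Folr2 at 0.34 and -0.11. Cd5l was past 1.5-fold in both, at 0.66 and 0.65, and Adgre1 stood at 0.90 and 1.57. The sum stood at 0.10 (0.03 to 0.17) and 0.09 (0.03 to 0.15). It was lower in HFD at 5000 to 10000 UMIs (657 and 444 spots), at -0.24 (-0.37 to -0.10). At 1000 to 5000 UMIs (1157 and 121 spots) it was -0.80 (-1.18 to -0.44). The interval of the sum thus left out 0 in each of these classes. In the shallower classes Clec4f stood at -0.14 (-0.44 to 0.14) and -0.96 (-1.86 to -0.18). Cd5l stood there at 0.07 and -0.28, with intervals that include 0.

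**Figure D3:**
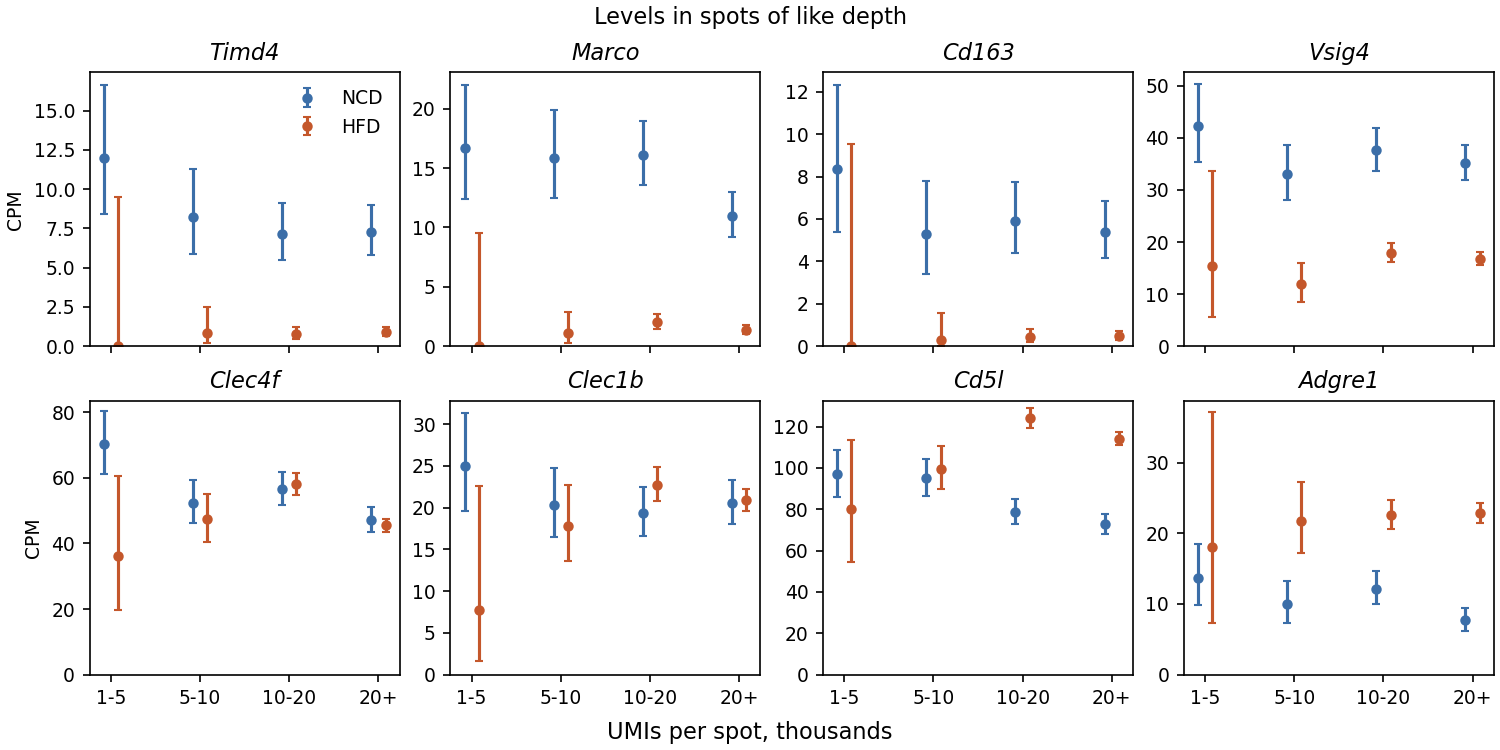
CPM of 8 KC genes in spots grouped by total UMIs (divided by 1000 on the axis), NCD in blue and HFD in orange, with 95% Poisson intervals. The HFD points of Timd4, Marco and Cd163 stay near 0 in every depth class, with wide intervals below 5000 UMIs, those of Clec4f and Clec1b meet the NCD points above 5000 UMIs, and those of Adgre1 lie above them from 5000 UMIs and those of Cd5l from 10000 UMIs on.

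Spots with a UMI of a given gene followed the levels once every spot was drawn down to 3000 UMIs, which kept 2107 NCD spots (1585 left out) and 3538 HFD spots (56 left out). Clec4f was found in 13.3% of NCD spots (11.9 to 14.8) and 13.2% of HFD spots (12.1 to 14.3). Marco was found in 4.18% (3.36 to 5.12) and 0.311% (0.155 to 0.556), Timd4 in 2.42% (1.81 to 3.17) and 0.254% (0.116 to 0.482), and Cd163 in 1.66% (1.16 to 2.30) and 0.141% (0.0459 to 0.329). Vsig4 was found in 10.8% and 5.14%, Cd5l in 21.1% and 27.4%, and Adgre1 in 2.85% and 5.85%. As deposited, without this correction for depth, Clec4f was found in 27.0% of NCD spots and 49.4% of HFD spots.

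Position in the lobule was read from hepatocyte genes. Spots with at least 1000 UMIs were ordered by the log2 ratio of pericentral to periportal hepatocyte UMIs and divided into a periportal, a midlobular and a pericentral class of equal size within each section, 2852 spots in NCD and 3590 in HFD. Of the genes that made the score, Glul, the pericentral glutamine synthetase, had a log2 ratio of periportal to pericentral CPM of -3.33 in NCD and -3.04 in HFD. None of the KC genes was in the score.

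In the NCD section the KC genes were spread over the lobule with little slope. The sum stood at 211 CPM in the periportal, 276 in the midlobular and 234 in the pericentral class, for a log2 ratio of periportal to pericentral of -0.15 (-0.24 to -0.06). Clec4f stood at 52.0, 59.0 and 48.7 CPM, for a log2 ratio of 0.10 (-0.10 to 0.29). Vsig4, at 28.9, 40.6 and 37.4 CPM, had a log2 ratio of -0.37 (-0.62 to -0.13), and Clec1b, at 16.0, 23.6 and 21.0 CPM, of -0.39 (-0.72 to -0.06). Cd5l had -0.18 (-0.34 to -0.02), while the intervals of Marco, Timd4, Cd163, Folr2 and Adgre1 include 0. None of the 9 KC genes with at least 50 UMIs was past 1.5-fold, against 3.93% of 9531 genes higher and 8.15% lower in the periportal class, and the KC gene median was -0.18 against -0.12 over all genes. C1q stood at 0.00 (-0.09 to 0.10).

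In the HFD section most KC genes with enough UMIs were lower in the periportal class. The sum stood at 180 CPM in the periportal, 302 in the midlobular and 277 in the pericentral class, for a log2 ratio of -0.62 (-0.68 to -0.57). Clec4f stood at 35.0, 58.6 and 60.4 CPM, for a log2 ratio of -0.79 (-0.91 to -0.67). Folr2 had the steepest slope of the 8 KC genes with at least 50 UMIs, at 7.79, 15.4 and 16.6 CPM and a log2 ratio of -1.09 (-1.34 to -0.85). Vsig4 had -0.73 (-0.94 to -0.52), Cd5l -0.63 (-0.71 to -0.56) and Marco -0.67 (-1.38 to 0.04). Clec1b (-0.33), Spic (-0.25) and Adgre1 (-0.22) were within 1.5-fold. In all, 5 of the 8 were at least 1.5-fold lower in the periportal class and none higher, against 5.39% and 5.97% of 12034 genes, with a median of -0.65 against -0.07 over all genes.

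The slope was smaller in a narrower range of depth. The periportal spots of the HFD section were the deepest, with a median of 24604 UMIs against 16903.5 in the pericentral class, and CPM is relative to that total. Counted per spot, Clec4f had 0.888 UMIs in a periportal and 1.08 in a pericentral HFD spot. Among HFD spots of 5000 to 20000 UMIs with classes made anew, whose median depths were 13871 and 13926 UMIs, the log2 ratio of the sum was -0.18 (-0.27 to -0.09), that of Clec4f -0.33 (-0.52 to -0.14), of Vsig4 -0.39 (-0.74 to -0.05), of Cd5l -0.20 (-0.33 to -0.07) and of Folr2 -0.16 (-0.55 to 0.23). No KC gene with an interval clear of 0 was past 1.5-fold in these spots. Both the depth and the spots of each class differ in this setting. In the original classes with every spot drawn down to 1000 UMIs the sum stood at -0.50 (-0.75 to -0.26) and Clec4f at -0.63 (-1.17 to -0.11), and with spots of at least 3000 UMIs the sum stood at -0.63. Of the 7 sinusoidal endothelial genes, 2 were at least 1.5-fold lower in the periportal class over all HFD spots, with a median of -0.48 and a range from -0.83 for Stab2 to 0.04 for Lyve1, and C1q stood at -0.25.

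**Figure D4:**
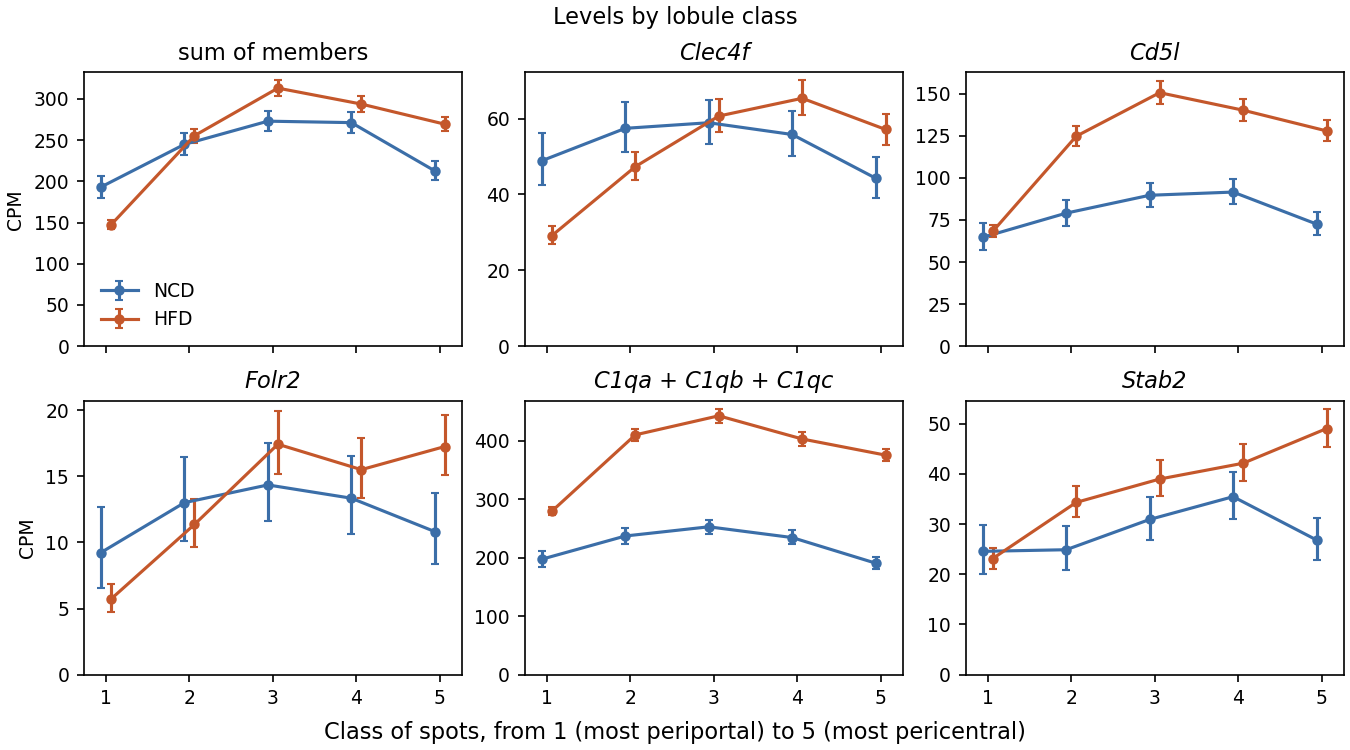
CPM of the summed KC genes, Clec4f, Cd5l, Folr2, summed C1q and Stab2 in 5 classes of spots from most periportal (1) to most pericentral (5), NCD in blue and HFD in orange, with 95% Poisson intervals. The summed KC genes are highest in the middle class of the HFD section, at 313 CPM. In NCD the middle class, at 273 CPM, and class 4, at 271 CPM, are level. The most periportal HFD class is the lowest of all 10 at 147 CPM.

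Set against C1q, whose own slope is taken off, the HFD section kept part of this pattern. The sum had 56.3, 68.9 and 73.0 UMIs per 100 C1q UMIs from the periportal to the pericentral class, for a log2 ratio of -0.37 (-0.43 to -0.32). Folr2 stood at -0.84 (-1.09 to -0.60) and Clec4f at -0.54 (-0.66 to -0.42), while Clec1b (-0.08) and Adgre1 (0.03) ran level with C1q.

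Timd4, Marco and Cd163 were lower in the HFD section in each part of the lobule. From the periportal through the midlobular to the pericentral class, the log2 ratio of HFD to NCD was -2.72, -3.35 and -3.22 for Timd4, -3.47, -3.08 and -2.86 for Marco, and -3.71, -3.50 and -3.80 for Cd163. Vsig4 was at least 1.5-fold lower in each class as well, at -1.30, -0.91 and -0.94. Clec4f was lower in the periportal class at -0.57 (-0.74 to -0.40), level in the midlobular class at -0.01 (-0.15 to 0.13) and higher in the pericentral class at 0.31 (0.16 to 0.46). Folr2 ran the same way, at -0.36, 0.03 and 0.53. Adgre1 was higher in all 3, at 0.97, 1.17 and 1.52.

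Several KC genes shared spots with Clec4f, and so did the C1q genes. Among spots drawn down to 3000 UMIs, those with a Clec4f UMI (280 of 2107 in NCD, 466 of 3538 in HFD) were set against the rest. In the NCD section Marco stood at 28.6 CPM in spots with Clec4f and 13.9 CPM in the others, for a log2 ratio of 1.04 (0.32 to 1.72). Folr2 had 0.84 (0.05 to 1.57), Vsig4 0.71 (0.23 to 1.15), Cd5l 0.46 (0.12 to 0.79) and Clec1b -0.05 (-0.86 to 0.67). In all, 4 of the 7 other KC genes with at least 50 UMIs were past 1.5-fold, against 5.39% of 6750 genes. None of the 7 was at least 1.5-fold lower, against 7.63%. The 4 include Timd4, at 0.97 (-0.10 to 1.93) from 12 and 40 UMIs, whose interval includes 0. Adgre1 had 0.30 (-0.84 to 1.29). Cd163, short of 50 UMIs, had -1.38 (-4.48 to 0.58) from 2 and 34 UMIs. C1qa had 0.69, C1qb 0.50 and C1qc 0.64, so genes that macrophages share were raised there too.

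In the HFD section Vsig4 stood at 31.5 CPM in spots with Clec4f and 16.2 CPM in the others, for a log2 ratio of 0.96 (0.44 to 1.45). Clec1b had 0.80 (0.27 to 1.31), Cd5l 0.66 (0.46 to 0.87), Adgre1 0.65 (0.13 to 1.15) and Folr2 0.47 (-0.23 to 1.12), so that 4 of 5 were past 1.5-fold, against 3.53% of 8849 genes, and none was lower, against 6.53%. Timd4 and Marco had 9 and 11 UMIs over all these spots, too few for a ratio. The shared macrophage genes C1qa, C1qb and C1qc were raised as well, at 0.30, 0.47 and 0.40. The 4 core genes of lipid-associated macrophages were not raised in spots with Clec4f, with log2 ratios from -0.45 for Itgax to -0.08 for Gpnmb and intervals that include 0.

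The same question was put the other way round in the HFD section, where the core genes Trem2, Gpnmb, Mmp12 and Itgax were abundant enough to rank spots. The tenth of spots with the highest depth-adjusted residual of these genes, 359 spots, was set against the other 3231, with median depths of 21429 and 18250 UMIs. A spot called rich held from 1 to 35 UMIs of the summed core genes, so the group includes spots with little evidence of them. Clec4f was level, at 48.9 CPM (44.1 to 54.0) in the rich spots and 49.2 CPM (47.5 to 51.0) in the rest, for a log2 ratio of -0.01 (-0.17 to 0.14). Folr2 stood at 13.4 and 12.4 CPM, for a log2 ratio of 0.11 (-0.20 to 0.40). Cd5l was higher in the rich spots, at 181 against 108 CPM, for a log2 ratio of 0.74 (0.66 to 0.82). Adgre1 had 0.72 (0.53 to 0.91), Clec1b 0.61 (0.40 to 0.80), Spic 1.02 (0.29 to 1.69) and Vsig4 0.37 (0.12 to 0.60). Timd4, Marco and Cd163, with 11, 9 and 4 UMIs in the rich spots, had intervals that include 0.

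In all, 5 of the 9 KC genes with at least 50 UMIs were at least 1.5-fold higher in the rich spots, against 7.69% of 12468 genes, and none was lower, against 2.01%. The 5 include Timd4, at 0.77 (-0.32 to 1.72) from 11 and 52 UMIs, whose interval includes 0. The pan-macrophage genes were higher for 9 of 10, with Cd68 at 1.30 and summed C1q at 0.73, and none of the 7 sinusoidal genes was past 1.5-fold, with a median of 0.00, Stab2 at 0.12 and Clec4g at 0.00. Cd5l and Adgre1 were thus higher by about as much as C1q, and Clec4f and Folr2 were level, as were Stab2 and Clec4g. The NCD section held between 26 and 58 UMIs of each core gene, too few for such a ranking.

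**Figure D5:**
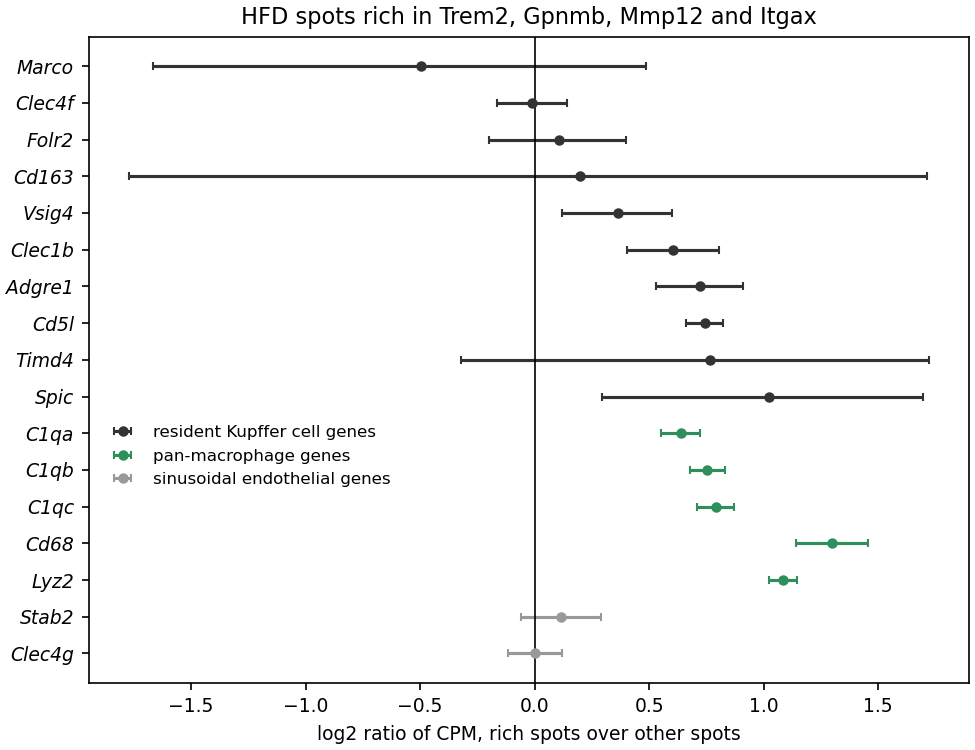
Log2 ratio of CPM in the 359 HFD spots rich in Trem2, Gpnmb, Mmp12 and Itgax over the other 3231 HFD spots, for the KC genes (black), 5 pan-macrophage genes (green) and 2 sinusoidal endothelial genes (grey), with 95% intervals of counting error. Clec4f and Folr2 lie near 0 with the endothelial genes, and Cd5l, Adgre1 and Clec1b lie with C1qa, C1qb and C1qc between 0.61 and 0.79.

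Over spots of at least 1000 UMIs, the genes whose depth-adjusted residuals were most like those of the summed KC genes were led by genes of myeloid cells in both sections. In the NCD section Wfdc17 led 7031 genes with a Pearson correlation of 0.37 over 2852 spots, followed by C1qc (0.35), C1qa (0.33), C1qb (0.33), Lyz2 (0.28), Tyrobp (0.27), Ctss (0.25), Fcna (0.25), Ccl6 (0.23) and Csf1r (0.22). In the HFD section Wfdc17 again led, at 0.55 among 10048 genes over 3590 spots, followed by C1qc (0.50), C1qb (0.45), Tyrobp (0.43), Ctsb (0.39), C1qa (0.39), Ccl6 (0.38), Lgmn (0.37), Tmsb4x (0.35) and AW112010 (0.35). The lists of 10 shared 6 genes, 60% of each. The highest correlation between KC genes was that of Clec4f with Cd5l, 0.36 in HFD and 0.21 in NCD, and Vsig4 with Cd5l had 0.32 and 0.17. The spots of a section share a library and neighbours, and the NCD counts are the shallower ones, so these values are descriptions and were not compared between the sections.

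Each of the 10 is a protein-coding gene of GENCODE on GRCm38. Timd4 lies at chr11:46810800-46844332, Marco at chr1:120474538-120505024, Cd163 at chr6:124304656-124330527, Vsig4 at chrX:96247203-96293438 and Cd5l at chr3:87357881-87371073. Clec4f (chr6:83644542-83656187), Clec1b (chr6:129397297-129409335) and Cd163 lie on chromosome 6. Folr2 (chr7:101839988-101857194), Spic (chr10:88674772-88685015) and Adgre1 (chr17:57358691-57483527) each lie on a chromosome of their own.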

How the data were processed

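The deposited values are raw UMI counts for every gene in every spot, which the authors made with Space Ranger (version 1.3.1 in the headers of the tables of spots over tissue) on mm10; the gene annotation is not given in the sources used here. The counts of 2 liver sections were read as deposited, and spots outside the tissue came from the tables of all spots. Levels are summed UMIs per 1000000 (CPM) with exact 95% Poisson intervals, ratios have exact conditional binomial intervals and shares of spots exact Clopper-Pearson intervals, all for counting error only. A count of 0 is read as allowing 3 counts. A gene was called at a ratio of at least 1.5 in either direction, where both groups together gave 50 UMIs or more. Spots were drawn down at random to 3000 UMIs, and depth-adjusted residuals are Pearson residuals with theta 100. The lobule score was log2 of pericentral over periportal UMIs, each plus 1. The genes named are the 10 KC genes, all genes of each list counted between the sections, and the 10 most like the KC gene sum in each section. The members and lists were chosen with earlier results of these data known, and 1 gene of the lists is not reported here. Comparisons at 5000 to 20000 UMIs per lobule class, the counts of genes past 1.5-fold under each alternative and the promoter motifs were added after seeing the data. Python 3.11.15, numpy 2.4.6, scipy 1.17.1 and matplotlib 3.10.9 were used, and the functions were tested on simulated data.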

Additional observations from a re-analysis of the deposited data

Results flagged for a closer look

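The periportal over pericentral log2 ratio had opposite signs in the sections for 3 KC genes. Clec4f had 0.10 in NCD and -0.79 in HFD, Timd4 -0.38 and 0.11, and Adgre1 0.33 and -0.22. The intervals of Timd4 include 0 in both sections and those of Clec4f and Adgre1 include 0 in NCD, and with 1 section per diet the difference was not tested. The median depths of the periportal and pericentral spots were 4635 and 7923.5 UMIs in NCD and 24604 and 16903.5 UMIs in HFD, so depth ran in opposite directions too.

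Spots outside the tissue, which were used only as a background to take off in an alternative, held KC gene UMIs at a summed level of 226 CPM on the NCD array and 142 CPM on the HFD array, against 246 and 243 CPM over tissue. Clec4f stood there at 39.3 and 28.9 CPM, and Cd5l at 81.8 and 64.3 CPM. With the off-tissue profile subtracted, the log2 ratio of Clec4f, HFD over NCD, was -0.37.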

How the results depend on the processing

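The lower levels of Timd4 (-4.47 to -2.89), Marco (-4.27 to -3.06), Cd163 (-4.72 to -2.75) and Vsig4 (-1.66 to -0.95) kept their direction under every alternative that gave a value, as log2 ratios of HFD to NCD. The lowest Timd4 value came from leaving out the 1% of spots with most Timd4 UMIs. This takes away a larger part of the 55 HFD spots with Timd4 than of the 204 NCD spots. For such a rare gene that setting is no check of direction. The log2 ratio of the summed genes was -0.42 as a mean over spots, -0.0581 at 3000, -0.11 at 1000 and -0.26 at 300 UMIs per spot, 0.0448 in spots of 5000 to 20000 UMIs and -0.0674 with the off-tissue profile subtracted. It was 0.0246 without Timd4, 0.11 without Vsig4, -0.37 without Cd5l, 0.0589 without Marco and -0.10 without Adgre1. Per C1q UMI it was -0.66 in spots of 5000 to 20000 UMIs and -0.90 against all 10 pan-macrophage genes. The number of genes at least 1.5-fold higher was 0 as a mean over spots and at 300 UMIs, and 2 without the 1% of spots with most such UMIs. The periportal over pericentral ratio of the sum in HFD was -0.87 with 5 classes, -0.54 with a score of standardised values, -0.44 without Cyp2e1 and Cyp2f2 in the score, -0.50 at 1000 UMIs, -0.47 as a mean over spots and -0.18 in spots of 5000 to 20000 UMIs. In NCD it turned to 0.0035 as a mean over spots. Other changes of sign among values of single genes whose interval leaves out 0 were Clec4f, HFD over NCD, at 0.0083 (3000 UMIs) and 0.0368 (5000 to 20000 UMIs), Adgre1, HFD over NCD, at -0.0797 (300 UMIs), and for the lobule ratio Cd5l in NCD at 0.0189 (1000 UMIs), and Clec1b at 0.0736 and Adgre1 at 0.11 in HFD (5000 to 20000 UMIs). Where the interval already includes 0, the sign changed for 11 values between diets, 7 in the NCD lobule and 9 in the HFD lobule, among them Folr2 between diets at -0.82 (300 UMIs), Adgre1 in the NCD lobule at -0.64 (1000 UMIs) and Timd4 in the HFD lobule at -1.58 (5000 to 20000 UMIs). The cause was not tested. Of 87 values of single genes between diets, 51 stayed within the counting interval, as did 63 of 68 for the NCD lobule and 44 of 69 for the HFD lobule. No value could be had for Marco and Cd163 at 300 UMIs, for Cd163 without the 1% of spots with most UMIs, for Spic in the NCD lobule with 5 classes or at 1000 UMIs, and for Timd4 in the HFD lobule at 1000 UMIs. No paired analysis was possible because each diet is 1 section, and leaving out a replicate leaves no section.

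Depth limits the rare genes: Timd4, Marco and Cd163 had 63, 111 and 32 UMIs over the whole HFD section, so their position in the lobule and their neighbours there could not be resolved.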
